A study of Mus musculus with 40 samples.

Results

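The genes described here belong to the unfolded protein response and the integrated stress response, the linked programs that match protein folding and translation to load in the endoplasmic reticulum (ER). As background, misfolded protein in the ER engages the membrane sensors IRE1 (gene Ern1), PERK (gene Eif2ak3) and ATF6 (gene Atf6). Their signals reach the nucleus through the transcription factors XBP1, ATF4 and cleaved ATF6, which raise transcription of chaperones, of the machinery that removes misfolded protein and of genes for amino acid supply. PERK also phosphorylates the translation factor eIF2α, as do other kinases that sense amino acid shortage, viral RNA or heme shortage, and so slows translation while favouring that of ATF4. The 36 members were chosen by name and function and make up 36 of the 55487 genes in the count table. By role they fall into 16 ER chaperones and folding enzymes, 5 sensors and their proteases, 4 transcription factors, 6 components of ER-associated degradation, and 5 targets or feedback genes of ATF4.

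The study asked how astrocyte-like cells respond to inflammatory mediators and what then happens to motor neurons cultured with them. Mouse embryonic stem cells were turned into astrocyte-like cells of brainstem and ventral spinal type (ES-astrocytes) and into ES-motor neurons, all from a single non-commercial line from B6.Cg-Tg(Hlxb9-GFP)1Tmj/J mice, in which the Hb9 promoter drives eGFP and thereby marks motor neurons. ES-motor neurons sorted for eGFP were seeded on the ES-astrocytes, both were later pulled apart by sorting on fluorescence, and about 200 cells per sample were lysed for oligo-dT primed, Tn5-fragmented libraries of polyadenylated RNA. Per the study's methods a biological replicate is a vial of cells from a defined passage of that line. The p-values therefore concern cultures of 1 line alone. The 10 groups were the 2 cell types under 5 treatments of the ES-astrocytes, with 4 replicates lettered A to D in each group. The treatments were a control without added mediator, IL-1α with TNF-α, the complement proteins C1Q with C5, IL-1β with IL-6, and TGF-β2, with each mediator given for 24 hours. Whether libraries of the same letter share a vial or a co-culture is not given in the labels. The cell type fit took all 40 libraries as independent. Where cultures are shared, its p-values also take in spread within a culture.

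Depth differed widely between the cell types. Total counts per library ran from 1510823 to 16054290 with a median of 4670241.5 in the 20 ES-astrocyte libraries, and from 6557 to 19717324 with a median of 1213482 in the 20 ES-motor neuron libraries. A total under 20% of the median over all 40 libraries (2459460.5) was found in 9 ES-motor neuron libraries and in 0 ES-astrocyte libraries. These 9 were all 4 libraries with IL-1α and TNF-α, libraries B and D with IL-1β and IL-6, control C, C1Q with C5 A, and TGF-β2 A. The shallowest, C1Q with C5 A, held 2697 genes with a count, against a median of 10767.5 genes in ES-motor neurons and 12605 in ES-astrocytes. Levels are given as CPM, the counts of a gene scaled to a common library size with the trimmed mean of M-values. A count of 0 allows a level of up to 3 counts, which came to a median of 0.648 CPM in ES-astrocytes, 2.90 CPM in ES-motor neurons, with 203 CPM for the shallowest library. Such floors and the 0 values below cover counting error alone. In a bulk sample, fewer cells of a type and less RNA per cell cannot be told apart.

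Some libraries stood apart in content. ES-astrocyte control A had 1.12% mitochondrial counts against a median of 3.54% in ES-astrocytes, and 4.65% of its counts in its 10 most abundant genes against a median of 15.1%. It was the highest of its group for 18 of the 34 members that could be ranked, where it was highest for 37.1% of all genes. ES-motor neuron library A with IL-1β and IL-6 was the highest of its group for 22 of 36 members, where it was highest for 43.9% of all genes. The shallow ES-motor neuron library A with IL-1α and TNF-α had 1.65% mitochondrial counts (median of 3.62% in ES-motor neurons) and 10.02% of counts in its 10 most abundant genes (median of 17.8%), and was the highest of its group for 18 of 36 members and 30.7% of all genes. The plate index also differed, with control and IL-1α with TNF-α libraries on plate index 1 and the other 3 treatments on plate index 2, so that for those 3 treatments plate and stimulus cannot be told apart.

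The cell type labels were checked against marker lists. All 8 motor neuron markers were in the table and summed to 3283 CPM in ES-motor neurons against 190 CPM in ES-astrocytes, with Nefl, a neurofilament, the most abundant at 1867 and 145 CPM. Mnx1, the gene behind the Hb9 reporter, averaged 1055 CPM in ES-motor neurons against 3.43 CPM in ES-astrocytes. Lhx3 alone of the 8 had the lower mean in ES-motor neurons, 8.85 CPM against 12.02 CPM in ES-astrocytes, with overlapping ranges. The 5 general neuron markers summed to 4473 and 1689 CPM, led by Stmn2 at 3161 and 974 CPM, so neuronal transcripts were present in the ES-astrocyte libraries as well. The 9 astrocyte markers summed to 1724 CPM in ES-astrocytes against 352 CPM in ES-motor neurons. Of that list, Gfap, Aqp4 and Aldh1l1 were at 0 in all 20 ES-astrocyte libraries, S100b averaged 0.0171 CPM, and Fabp7, also made by radial glia, supplied 1430 CPM. The glutamate transporters Slc1a2 (128 and 18.2 CPM) and Slc1a3 (35.5 and 1.18 CPM) were higher in ES-astrocytes, Glul stood at 50.6 and 42.3 CPM, and Sox9 was lower in ES-astrocytes (79.0 CPM) than in ES-motor neurons (266 CPM). The ES-astrocytes thus lacked some defining markers of mature astrocytes and carried others, and their name follows the labels.

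Other cell types were checked in the same way. The 4 cycling progenitor markers summed to 536 CPM in ES-astrocytes against 12.2 CPM in ES-motor neurons, led by Top2a at 418 and 3.48 CPM. For 5 markers of fibroblasts or mesenchyme the sums were 258 and 0.760 CPM, led by Dcn at 221 and 0.630 CPM. Microglia (5 markers, 3.41 and 4.2004 CPM), the oligodendrocyte lineage (5 markers, 7.67 and 11.04 CPM) and pluripotent cells (2 markers, 0.296 and 0.00574 CPM, Pou5f1 at 0) gave low sums in both. Cycling and mesenchymal transcripts therefore moved with the cell type comparison, and their part in the results on the members was not tested.

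All 36 members were found in the table, and levels between genes are compared as mean CPM per kilobase of exon. Canx, a lectin chaperone of newly made glycoproteins, led in both cell types with mean levels per kilobase of 312 in ES-astrocytes against 313 in ES-motor neurons, ranks 180 and 172 of 55227 genes with a symbol. In ES-astrocytes the mean levels per kilobase that followed were 99.7 for Pdia3, 93.6 for Hsp90b1, 91.0 for Manf and 87.8 for Hspa5, with Asns further down among the members at 42.1. In ES-motor neurons Asns was second among the members at 105 per kilobase, followed by Pdia3 at 65.9, Hspa5 at 50.3, Manf at 45.7 and Hsp90b1 at 43.7. Ern1, Atf3 and Trib3 were the 3 scarcest members in both cell types. Mean levels per kilobase were 0.694 for Ern1, 0.579 for Atf3 and 0.0372 for Trib3 in ES-astrocytes, and 0.523 for Trib3, 0.423 for Atf3 and 0.332 for Ern1 in ES-motor neurons.

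Summed over the 16 chaperones and folding enzymes, the level was 3917 ± 809 CPM in ES-astrocytes against 2901 ± 739 CPM in ES-motor neurons (SD, n = 20 libraries each, over 5 treatments). The mean sum was lower in ES-motor neurons under each of the 5 treatments. It was 4609 CPM in ES-astrocytes against 3252 CPM in ES-motor neurons under control, 3589 and 2524 CPM with IL-1α and TNF-α, 3284 and 2419 CPM with C1Q and C5, 4150 and 3072 CPM with IL-1β and IL-6, and 3954 and 3237 CPM with TGF-β2. Without the shallow libraries the ES-motor neuron means were 3110.1 CPM under control, 3001 CPM with C1Q and C5, 3236 CPM with IL-1β and IL-6 and 3224 CPM with TGF-β2, and with IL-1α and TNF-α no library was left. With C1Q and C5 the groups overlapped, with ES-astrocytes at 3884, 3570.2, 3505 and 2177 CPM and ES-motor neurons at 676, 2788, 3508 and 2706 CPM in libraries A to D. The summed level of the 5 ATF4 targets was 171 CPM in ES-astrocytes against 352 CPM in ES-motor neurons, mostly from Asns (means 115 and 288 CPM), while Mthfd2 (47.6 and 50.3 CPM) hardly differed and Ppp1r15a (5.14 and 3.89 CPM) ran lower. Sums for the remaining roles lay closer together, at 271 and 212 CPM for ER-associated degradation, 80.5 and 76.6 CPM for sensors and proteases, and 170 and 195 CPM for transcription factors.

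Between the cell types, with treatment as a term and all 40 libraries in the fit, 35 of 36 members had counts enough to be tested among 13227 genes. Members called at an adjusted p of at most 0.05 (edgeR, Benjamini-Hochberg over all genes tested) and more than 2-fold numbered 4, namely Creld2, Dnajc3 and Hsp90b1 lower and Asns higher in ES-motor neurons, where 14.9% of all genes were called. That share does not set the members apart from other genes. At any fold 11 of the 35 passed, beside 18.7% of all genes, of which 10 were lower in ES-motor neurons (13.2% of all genes) and 1 was higher (5.45% of all genes). All 10 lower members were chaperones or folding enzymes, out of 16 in that role. The median log2 difference was −0.49 over the members tested and −0.21 over all genes tested, and by role −0.66 for chaperones, −0.72 for sensors and proteases, −0.67 for ER-associated degradation, 0.17 for transcription factors and 0.80 for the 4 ATF4 targets tested.

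**Figure D1:**
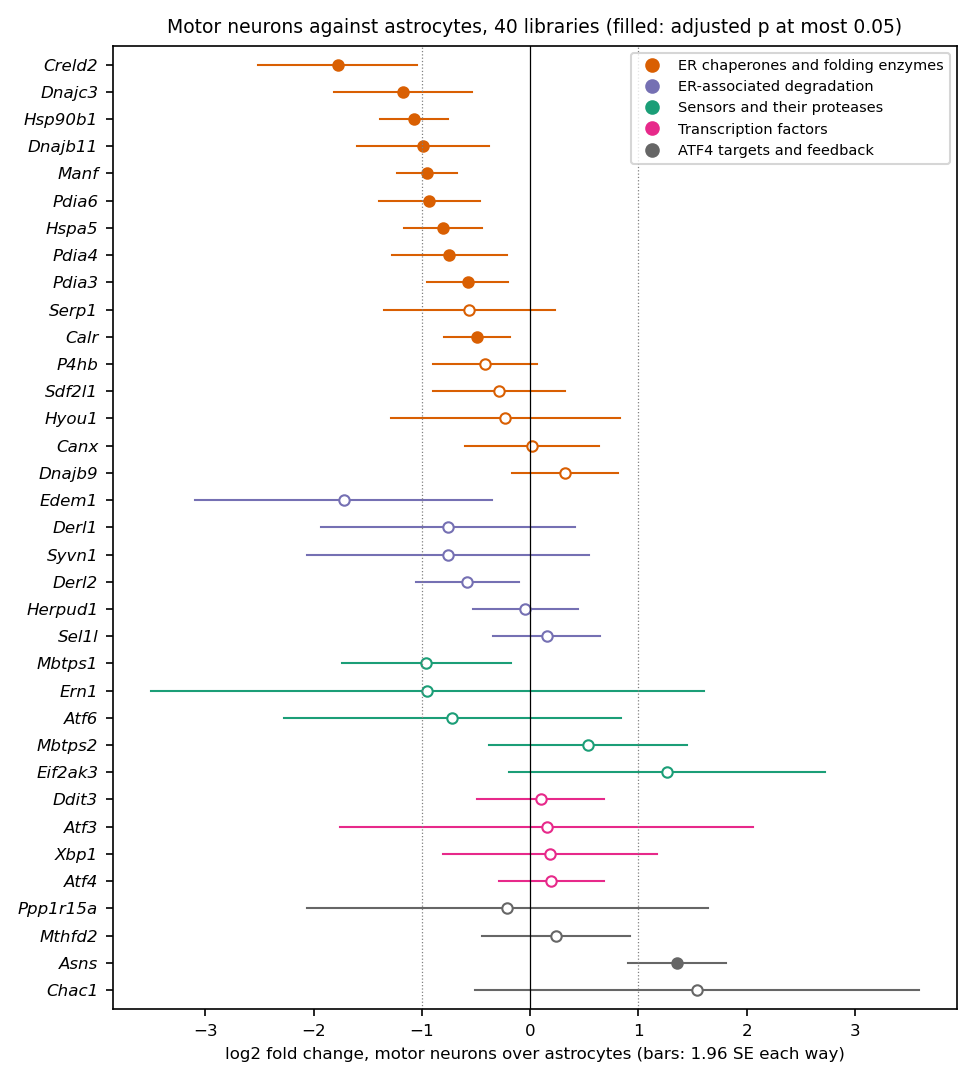
Log2 fold change of each of the 35 members tested, ES-motor neurons over ES-astrocytes in 40 libraries, with filled points for an adjusted p of at most 0.05. Bars are an approximate 95% interval (normal, from the SE), which need not match the test. The filled points are 10 chaperones or folding enzymes to the left of 0 and Asns to the right of 0.

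Hspa5 encodes BiP, the main ER chaperone of the Hsp70 class and the partner that the sensors bind at rest. Its level ranged from 159 to 797 CPM with a median of 385 CPM in ES-astrocytes, and from 66.3 to 426 CPM with a median of 190 CPM in ES-motor neurons. The ranges overlapped, but 19 of 20 ES-motor neuron libraries lay below the ES-astrocyte median. The log2 difference was −0.81 ± 0.18 (SE) with an adjusted p of 0.000846 (edgeR). Hsp90b1, the ER member of the Hsp90 class, ranged from 237 to 620 CPM with a median of 335 CPM in ES-astrocytes, and from 0 to 318 CPM with a median of 178 CPM in ES-motor neurons. Every ES-astrocyte library lay above the ES-motor neuron median and every ES-motor neuron library below the ES-astrocyte median, 20 of 20 in each case, although the ranges met between 237 and 318 CPM. Its log2 difference was −1.07 ± 0.16 (SE), with an adjusted p of 8.80e-07.

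Creld2 and Manf code for small ER proteins that are induced and partly secreted under ER stress. Creld2 ranged from 1.00 to 132 CPM (median 54.9 CPM) in ES-astrocytes and from 0 to 53.3 CPM (median 18.6 CPM) in ES-motor neurons. Manf ranged from 155 to 542 CPM (median 312 CPM) in ES-astrocytes and from 67.6 to 253 CPM (median 165 CPM) in ES-motor neurons. For both genes 20 of 20 ES-motor neuron libraries read below the ES-astrocyte median, while some ES-astrocyte libraries reached down into the ES-motor neuron range. Counts of this kind take each value as read. C1Q with C5 A held 0 counts of Creld2, where 3 counts stood for 203 CPM, so it cannot be placed for that gene. The log2 difference of Creld2, −1.78 ± 0.37 (SE, adjusted p = 0.000289), was the lowest among the chaperones. Manf had a log2 difference of −0.95 ± 0.14 (SE, adjusted p = 9.46e-07), just short of the 2-fold threshold, and passed that threshold without the libraries of letter D. With values as read, these and Hsp90b1 were the 3 members with every ES-motor neuron library below the ES-astrocyte median. The same held for 6.33% of the 13227 genes tested.

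**Figure D2:**
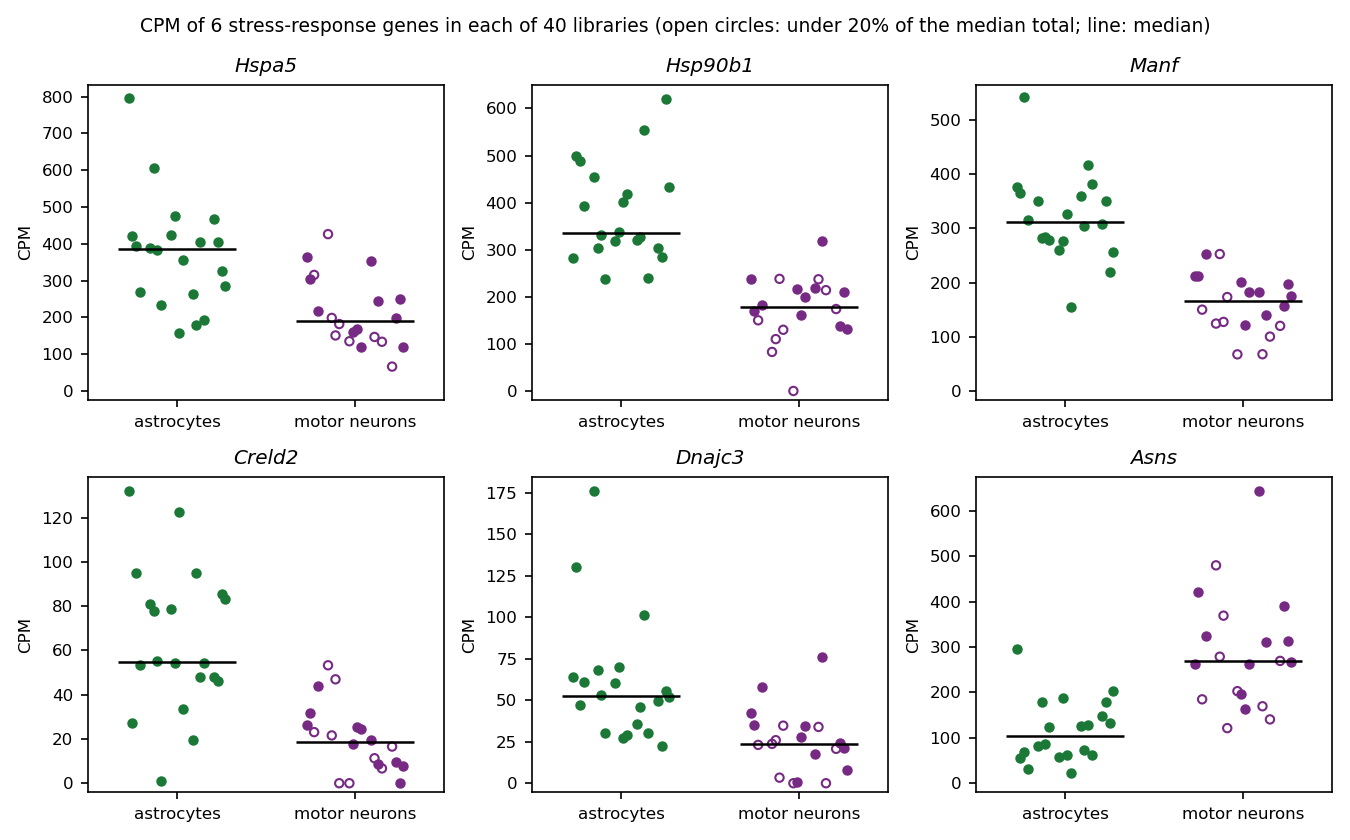
CPM (vertical axis, linear) of 6 members in 20 ES-astrocyte and 20 ES-motor neuron libraries, with a line at the median and open circles for libraries under 20% of the median total. Hsp90b1 had medians of 335 and 178 CPM, while Asns ran the other way with medians of 105 and 268 CPM.

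Dnajc3 and Dnajb11 are co-chaperones that bring clients to BiP or stimulate its ATPase. Dnajc3, which also inhibits PERK, ranged from 22.7 to 176 CPM (median 52.6 CPM) in ES-astrocytes and from 0 to 75.8 CPM (median 23.9 CPM) in ES-motor neurons. Dnajb11 ranged from 20.6 to 188 CPM (median 66.9 CPM) in ES-astrocytes and from 0 to 87.9 CPM (median 27.5 CPM) in ES-motor neurons. In each case 18 of 20 ES-motor neuron libraries lay below the ES-astrocyte median, with overlapping ranges. The log2 difference was −1.18 ± 0.33 (SE, adjusted p = 0.00625) for Dnajc3 and −0.99 ± 0.31 (SE, adjusted p = 0.0175) for Dnajb11. Both results moved with single letters. Dnajc3 lost its call without the libraries of letter A or of letter B, and across the 4 omissions its log2 difference ran from −1.34 to −1.01 and its adjusted p from 0.0108 to 0.0793. Dnajb11 passed 2-fold without letter A or letter C and lost its pass at any fold without letter B (−0.96, adjusted p = 0.0955) or letter D (−0.81, adjusted p = 0.132).

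The protein disulfide isomerases, which form and rearrange disulfide bonds, were given by Pdia3, Pdia4, Pdia6 and P4hb. Pdia6 ranged from 92.4 to 809 CPM (median 225 CPM) in ES-astrocytes and from 25.7 to 290 CPM (median 123 CPM) in ES-motor neurons. Pdia3, the partner of the lectin chaperones, ranged from 141 to 578 CPM (median 291 CPM) and from 119 to 426 CPM (median 171 CPM). Pdia4 ranged from 33.6 to 172 CPM (median 63.1 CPM) and from 0 to 85.1 CPM (median 34.8 CPM). The groups overlapped for all 3, with 18, 15 and 16 of 20 ES-motor neuron libraries below the ES-astrocyte median for Pdia6, Pdia3 and Pdia4. Log2 differences were −0.93 ± 0.24 (SE, adjusted p = 0.00301) for Pdia6, −0.58 ± 0.19 (SE, adjusted p = 0.0247) for Pdia3 (−0.38 without letter B) and −0.75 ± 0.27 (SE, adjusted p = 0.0452) for Pdia4. Pdia3 and Pdia4 lost their pass without letter B, C or D (highest adjusted p of 0.320 and 0.293) and Pdia6 without letter B (adjusted p = 0.111). P4hb, with medians of 120 and 94.7 CPM, had a log2 difference of −0.42 ± 0.24 (SE) that did not pass (adjusted p = 0.276), with 16 of 20 ES-motor neuron libraries below the ES-astrocyte median.

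Of the lectin chaperones, which hold glycoproteins until they are folded, Calr ranged from 110 to 264 CPM (median 186 CPM) in ES-astrocytes and from 33.9 to 221 CPM (median 129 CPM) in ES-motor neurons. It was below the ES-astrocyte median in 19 of 20 ES-motor neuron libraries, with a log2 difference of −0.49 ± 0.15 (SE, adjusted p = 0.0178). Of the 4 omissions of a letter it passed only without A, with adjusted p-values of 0.797, 0.113 and 0.0915 without B, C and D. Its log2 difference hardly moved across the 4 omissions, from −0.50 to −0.46. Canx ranged from 97.4 to 2810 CPM (median 1739 CPM) and from 113 to 2782 CPM (median 1565 CPM). Its ranges all but coincided, and the log2 difference was 0.02 ± 0.32 (SE, adjusted p = 0.983) with 13 of 20 ES-motor neuron libraries below the ES-astrocyte median. The other 4 members of this role did not pass either. Medians were 77.3 and 48.6 CPM for Serp1, a translocon-associated protein, 37.1 and 28.2 CPM for Sdf2l1, a partner of Dnajb11, and 9.19 and 5.03 CPM for Hyou1, a nucleotide exchange factor for BiP. Their log2 differences were −0.56 ± 0.40, −0.29 ± 0.31 and −0.23 ± 0.54 (SE). Dnajb9, a co-chaperone of BiP and repressor of IRE1, was the one chaperone with a higher ES-motor neuron mean in all 5 treatments (overall medians 46.3 and 66.2 CPM, log2 difference 0.32 ± 0.25, SE, adjusted p = 0.456). By contrast 11 of the 16 chaperones had a lower ES-motor neuron mean in all 5 treatments, as did 21.7% of the 13227 genes tested.

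None of the 5 sensors and proteases passed the test in edgeR. At an unadjusted p under 0.05 the count was 1 (Mbtps1), and DESeq2 called 1, also Mbtps1. Without the 9 shallow libraries 0 of the 5 lay under that unadjusted p, where 3747 of 15721 genes did. Ern1, which cleaves Xbp1 mRNA, was read at 0 to 23.4 CPM (median 0.930 CPM) in ES-astrocytes and at 0 to 17.3 CPM (median 0 CPM) in ES-motor neurons, with counts in 12 and 7 of 20 libraries. Eif2ak3 was read at 0 to 52.7 CPM (median 2.38 CPM) and at 0 to 70.6 CPM (median 8.75 CPM). Atf6 was read at 0 to 70.7 CPM (median 6.28 CPM) and at 0 to 22.6 CPM (median 3.92 CPM). All 3 sensors were at 0 in some libraries of both cell types. Log2 differences were −0.95 ± 1.30 for Ern1 (SE, adjusted p = 0.719, 13 of 20 ES-motor neuron libraries below the ES-astrocyte median), 1.26 ± 0.74 for Eif2ak3 (SE, adjusted p = 0.278, 3 of 20 below) and −0.72 ± 0.80 for Atf6 (SE, adjusted p = 0.635, 12 of 20 below). Without letter A that of Ern1 was −1.64, and without letter D that of Atf6 was −0.23. Intervals this wide do not resolve a difference of 2-fold.

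Mbtps1 and Mbtps2 code for the Golgi proteases that release the active part of ATF6. Mbtps1 had medians of 27.4 CPM in ES-astrocytes against 16.6 CPM in ES-motor neurons, with 19 of 20 ES-motor neuron libraries below the ES-astrocyte median and a log2 difference of −0.96 ± 0.40 (SE, adjusted p = 0.0887). Mbtps2 had medians of 19.5 and 23.0 CPM and a log2 difference of 0.54 ± 0.47 (SE, adjusted p = 0.517). Their levels overlapped broadly between the cell types. The exons of Mbtps2 share 28.4% of their bases with Yy2 on the same strand, so its counts may hold reads of both genes.

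The 4 transcription factors showed no difference that passed, with 0 members at an unadjusted p under 0.05 in edgeR and 0 called by DESeq2. In the fit without shallow libraries 0 of the 4 lay under that unadjusted p, where 3747 of 15721 genes did. Atf4, the effector of eIF2α phosphorylation, ranged from 9.41 to 157 CPM (median 73.9 CPM) in ES-astrocytes and from 26.0 to 160 CPM (median 76.2 CPM) in ES-motor neurons. Xbp1, the target of IRE1, ranged from 0 to 131 CPM (median 38.7 CPM) and from 0 to 206 CPM (median 60.4 CPM). Ddit3, which codes for the pro-apoptotic factor CHOP, ranged from 6.63 to 79.3 CPM (median 33.7 CPM) and from 0 to 86.7 CPM (median 28.1 CPM). The groups overlapped almost fully for these genes. Atf3, a stress-induced repressor, had counts in 5 of 20 ES-astrocyte and 4 of 20 ES-motor neuron libraries, at most 8.89 and 5.92 CPM. Log2 differences were 0.20 ± 0.25 for Atf4 (SE, adjusted p = 0.690, 9 of 20 ES-motor neuron libraries below the ES-astrocyte median), 0.18 ± 0.50 for Xbp1 (SE, adjusted p = 0.878, 7 of 20), 0.10 ± 0.30 for Ddit3 (SE, adjusted p = 0.890, 11 of 20) and 0.15 ± 0.97 for Atf3 (SE, adjusted p = 0.949). The sign for Atf3, Xbp1 and Ddit3 turned when single replicate letters were left out, with ranges of −1.41 to 1.75, −0.28 to 0.54 and −0.12 to 0.55, and that of Atf4 ran from 0.13 to 0.34. Counts per gene do not separate spliced from unspliced Xbp1, the form that reports IRE1 activity.

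ER-associated degradation moves misfolded protein to the cytosol for destruction. Of its 6 members 0 passed in edgeR, with 2 at an unadjusted p under 0.05 and 1 called by DESeq2. In the fit without shallow libraries 1 of the 6 lay under that unadjusted p, where 3747 of 15721 genes did. Edem1, which recognises trimmed glycoproteins, had medians of 13.6 CPM in ES-astrocytes against 2.27 CPM in ES-motor neurons and the lowest log2 difference of the role, −1.72 ± 0.70 (SE, adjusted p = 0.0809). Derl2, a component of the membrane channel, had medians of 50.4 and 40.4 CPM and a log2 difference of −0.58 ± 0.24 (SE, adjusted p = 0.0918). ES-motor neuron libraries lay below the ES-astrocyte median in 17 of 20 cases for Edem1 and 15 of 20 for Derl2, and the ranges overlapped. DESeq2 called Edem1, which edgeR did not. For Derl1 (medians 41.4 and 16.7 CPM) and Syvn1, the ubiquitin ligase HRD1 (medians 5.73 and 4.72 CPM), both log2 differences were −0.76. The membrane protein Herpud1 (medians 83.9 and 73.9 CPM) and Sel1l, the adaptor of HRD1 (medians 43.8 and 54.4 CPM), differed by −0.04 and 0.15 on the log2 scale.

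Asns, the asparagine synthetase induced by ATF4 when amino acids are scarce, was the one member that passed as higher in ES-motor neurons with all 40 libraries. It ranged from 22.9 to 296 CPM (median 105 CPM) in ES-astrocytes and from 121 to 644 CPM (median 268 CPM) in ES-motor neurons. No ES-motor neuron library lay below the ES-astrocyte median (0 of 20), and 1 of 20 ES-astrocyte libraries, control A, lay above the ES-motor neuron median. The log2 difference was 1.36 ± 0.23 (SE, adjusted p = 1.03e-05, edgeR). Medians of Asns in ES-astrocytes and ES-motor neurons were 62.6 and 293 CPM under control, 105 and 324 CPM with IL-1α and TNF-α, 60.0 and 199 CPM with C1Q and C5, 100.03 and 240.4 CPM with IL-1β and IL-6, and 163 and 291 CPM with TGF-β2. The ES-motor neuron median was thus the higher in all 5 treatments.

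Other ATF4 targets and feedback genes were scarcer. Mthfd2, a mitochondrial folate enzyme, had medians of 37.1 and 40.1 CPM and a log2 difference of 0.24 ± 0.35 (SE, adjusted p = 0.738). Chac1, which degrades glutathione, had counts in 9 and 11 of 20 libraries and a log2 difference of 1.54 ± 1.05 (SE, adjusted p = 0.370). Ppp1r15a, the GADD34 subunit that reverses eIF2α phosphorylation, had counts in 12 and 10 of 20 libraries and a log2 difference of −0.21 ± 0.94 (SE, adjusted p = 0.926). All 3 overlapped between the cell types. Trib3, a pseudokinase that restrains ATF4, had 7 counts in 3 of 20 ES-astrocyte libraries against 51 in 5 of 20 ES-motor neuron libraries. It was too low for the fit, and the difference in mean CPM was 1.03 (p = 0.0954, 2-sided permutation test with 100000 resamples).

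Without the 9 shallow libraries, 36 members and 15721 genes could be tested in the 20 ES-astrocyte and 11 remaining ES-motor neuron libraries. Members called at more than 2-fold were 3 (Asns, Creld2 and Trib3), beside 10.4% of all genes. At any fold there were 6, beside 12% of all genes, and these added Hsp90b1, Hspa5 and Manf. Log2 differences were 1.59 for Asns (adjusted p = 7.02e-05, above the ES-astrocyte median in 11 of 11 libraries), −1.93 for Creld2 (adjusted p = 0.00426, below it in 11 of 11), −0.90 for Hsp90b1 (adjusted p = 0.000383, 11 of 11), −0.73 for Manf (adjusted p = 0.000822, 11 of 11) and −0.62 for Hspa5 (adjusted p = 0.0489, 11 of 11). The call of Trib3 rested on 4 ES-motor neuron libraries with counts among the 11 (log2 difference 4.38, adjusted p = 0.0498), against a gene near 0 in ES-astrocytes. Dnajc3 (log2 difference −0.80, adjusted p = 0.182) and Dnajb11 (−0.55, adjusted p = 0.324) no longer passed. Pdia6 (−0.85, adjusted p = 0.0629), Pdia3 (−0.37, adjusted p = 0.372), Pdia4 (−0.49, adjusted p = 0.331) and Calr (−0.24, adjusted p = 0.399) lost their pass as well. The median over members was then −0.30 and over all genes −0.08. Without ES-astrocyte control A the same 4 members were called, and 8 passed at any fold, with Calr, Pdia3 and Pdia4 lost.

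The cell type comparison was also made within parts of the design. In the 8 control libraries alone 0 of 32 members were called (edgeR, with 2.24% of 10199 genes past the threshold at any fold). An unadjusted p under 0.05 was found for 3 (edgeR), and DESeq2 called 1 (Hsp90b1). The chaperones had a median log2 difference of −0.86, where the median of all genes was −0.20. These libraries include ES-astrocyte control A, which stood apart in content, and the controls were not refitted without it. Within plate index 1 the calls were Asns and Hsp90b1 (2 members, with 3 at any fold beside 6.85% of all genes), and within plate index 2 they were Asns, Creld2 and Pdia6 (3 members, with 6 at any fold beside 11.2% of all genes). Asns was thus called within either plate index. Leaving out the libraries of letter B left 3 members called and 5 at any fold (Asns, Creld2, Hsp90b1, Hspa5 and Manf, beside 12.4% of all genes), against 10 without letter A (16.4% of all genes), 8 without letter C (13.9%) and 7 without letter D (14.7%).

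Each stimulus was compared with control within a cell type, 4 libraries against 4, to ask whether the members moved with treatment. The 4 comparisons of a cell type share the same control libraries and are not independent of one another. In ES-astrocytes 0 members were called in any of them, and all edgeR adjusted p-values of the members stood at 0.9999. With IL-1α and TNF-α the call was 0 of 31 members tested (0% of 10444 genes), with 0 members at an unadjusted p under 0.05 (0.89% of genes) and 0 by DESeq2. For C1Q with C5 it was 0 of 32 (0% of 10865 genes), with 0 at an unadjusted p under 0.05 (0.976% of genes) and 0 by DESeq2. For IL-1β with IL-6 it was 0 of 31 (0% of 10240 genes), with 0 at an unadjusted p under 0.05 (1.16% of genes) and 0 by DESeq2. For TGF-β2 it was 0 of 32 (0% of 10794 genes), with 0 at an unadjusted p under 0.05 (1.26% of genes) and 0 by DESeq2. In the same order the median log2 difference of the members was −0.22, −0.45, −0.43 and −0.15, where that of all genes was −0.08, −0.07, −0.07 and −0.06.

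The members of smallest unadjusted p are described next with values for libraries A to D, none of them past the test. Choosing by p favours groups that do not overlap, here and in ES-motor neurons below. The share of all genes whose groups separate in this way is not given, so such separation is no result by itself. With IL-1α and TNF-α in ES-astrocytes, Ddit3 read 8.36, 13.5, 16.4 and 68.9 CPM under control and 43.5, 36.7, 54.8 and 79.3 CPM under stimulus (log2 difference 1.04 ± 0.73, SE). Manf read 377, 365, 542 and 315 CPM under control and 351, 281, 284 and 279 CPM under stimulus (−0.38 ± 0.29, SE). Mbtps1 read 49.0, 85.2, 21.6 and 35.7 CPM under control and 5.53, 20.2, 20.7 and 49.2 CPM under stimulus (−0.95 ± 0.75, SE). For Ddit3 the 3 lower control libraries lay below every stimulated library, and control D lay within the stimulated range. Both other genes overlapped between the groups. Single libraries moved each value, since the log2 difference was 2.11 for Ddit3 without control D, −0.20 for Manf without control C, and −0.53 without control B and −1.59 without stimulated D for Mbtps1.

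With C1Q and C5 in ES-astrocytes, Atf4 read 66.2, 9.41, 35.4 and 70.1 CPM under control and 32.4, 111, 66.7 and 128 CPM under stimulus (log2 difference 0.94 ± 0.68, SE). Herpud1, a component of ER-associated degradation, read 115, 103, 76.0 and 137 CPM under control and 38.5, 113, 41.5 and 14.5 CPM under stimulus (−1.02 ± 0.60, SE). Manf read 260, 277, 326 and 155 CPM under stimulus (−0.62 ± 0.36, SE), beside the control values above. Stimulated library B stood within the control range for Herpud1 and the other 3 below it. For Manf library C alone lay within the control range. The log2 difference was 0.60 for Atf4 without control B and −1.76 for Herpud1 without stimulated library B.

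With IL-1β and IL-6, Atf4 read 157, 77.8, 92.1 and 114 CPM in ES-astrocytes, all above the highest control value of 70.1 CPM (log2 difference 1.29 ± 0.61, SE). Hspa5 read 797, 422, 395 and 269 CPM under control and 263, 178, 404 and 192 CPM under stimulus (−0.85 ± 0.42, SE). Mthfd2 read 178, 27.2, 42.0 and 16.97 CPM under control and 4.77, 32.1, 0.858 and 15.7 CPM under stimulus (−2.28 ± 1.12, SE). The groups did not overlap for Atf4, which was picked by its small p here, while those of Hspa5 and Mthfd2 did. For Hspa5 and Mthfd2, ES-astrocyte control A stood far above its group. Without that library the log2 difference was −0.47 for Hspa5 and −1.06 for Mthfd2. None of the 3 passed the test (adjusted p = 0.9999 for each, edgeR).

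With TGF-β2 in ES-astrocytes, Manf read 309, 351, 219.5 and 256 CPM (log2 difference −0.45 ± 0.31, SE). Pdia4 read 172, 52.2, 38.7 and 113 CPM under control and 76.8, 33.6, 53.2 and 42.8 CPM under stimulus (−0.80 ± 0.55, SE). Serp1 read 180, 47.9, 80.0 and 38.6 CPM under control and 252, 215, 86.1 and 74.6 CPM under stimulus (0.92 ± 0.59, SE). All 3 overlapped with control. Single libraries carried part of these values, since without ES-astrocyte control A the log2 difference was −0.36 for Pdia4 and 1.54 for Serp1. It was 0.56 for Serp1 without TGF-β2 A and −0.25 for Manf without control C.

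**Figure D3:**
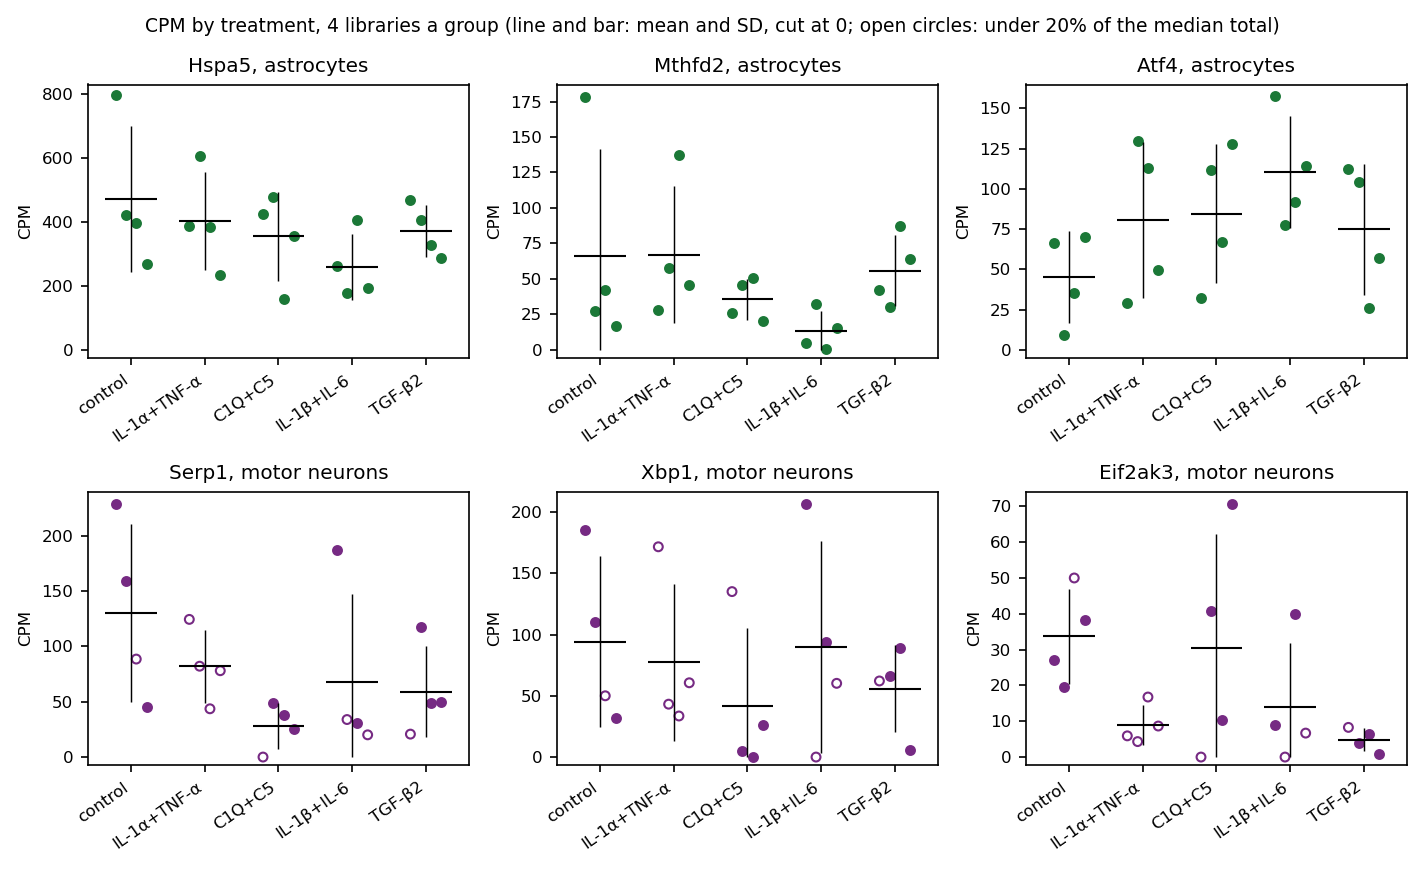
CPM (vertical axis, linear) by treatment for 3 members in ES-astrocytes and another 3 in ES-motor neurons, 4 libraries a group, with mean and SD and with open circles for libraries under 20% of the median total. Atf4 with IL-1β and IL-6 ran from 77.8 to 157 CPM in ES-astrocytes, and Eif2ak3 with TGF-β2 ran from 0.858 to 8.29 CPM in ES-motor neurons. Both were picked by small unadjusted p in these comparisons.

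In ES-motor neurons the same comparisons concern cells seeded on stimulated ES-astrocytes, and edgeR called 0 members in each. With IL-1α and TNF-α it was 0 of 23 members tested (0% of 4479 genes), with 0 at an unadjusted p under 0.05 (3.19% of genes) and 0 by DESeq2. For C1Q with C5 it was 0 of 29 (0% of 7348 genes), with 3 at an unadjusted p under 0.05 (4.38% of genes) and 0 by DESeq2. For IL-1β with IL-6 it was 0 of 30 (0% of 8327 genes), with 0 at an unadjusted p under 0.05 (1.18% of genes) and 0 by DESeq2. For TGF-β2 it was 0 of 30 (0.0126% of 7947 genes), with 4 at an unadjusted p under 0.05 (2.78% of genes) and 1 by DESeq2, Eif2ak3. The median log2 difference of the members was 0.13, −0.40, −0.04 and −0.12 in this order, where that of all genes was 0.03, −0.06, −0.01 and −0.00. The gene behind the TGF-β2 share was Hoxa5, no member (log2 difference 3.05, adjusted p = 0.0103), named after its values were seen. That count was 0 without control C, TGF-β2 A or TGF-β2 D and 2 without control A, B or D, and the count for C1Q with C5 was 2 without control D.

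With IL-1α and TNF-α all 4 ES-motor neuron libraries were shallow, and 3 counts stood for 17.8, 6.48, 10.1 and 26.0 CPM in libraries A to D. Ddit3 read 45.3, 17.6, 26.9 and 44.9 CPM under control and 71.1, 12.96, 80.5 and 86.7 CPM under stimulus (log2 difference 1.06 ± 0.62, SE). Dnajc3 read 42.6, 35.3, 23.1 and 57.8 CPM under control and 23.7, 25.9, 3.35 and 34.7 CPM under stimulus (−0.79 ± 0.66, SE). Mthfd2 read 62.5, 61.4, 11.5 and 72.6 CPM under control and 195, 34.6, 47.0 and 60.7 CPM under stimulus (0.87 ± 0.62, SE). The groups overlapped for each, and the adjusted p was 0.990 (edgeR) for all 3, with Ddit3 above every control in 3 of 4 libraries. Without IL-1α and TNF-α library A the log2 difference of Mthfd2 was −0.11, and without library C that of Dnajc3 was −0.39.

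With C1Q and C5, Hspa5 read 364, 304, 316 and 219 CPM in control ES-motor neurons and 135, 160.3, 169 and 121 CPM under stimulus (log2 difference −1.01 ± 0.38, SE, adjusted p = 0.997, edgeR). Serp1 read 228, 159, 88.5 and 44.9 CPM under control and 0, 48.6, 37.9 and 25.8 CPM under stimulus (−1.83 ± 0.51, SE, adjusted p = 0.828). Xbp1 read 186, 109.97, 50.03 and 31.5 CPM under control and 135, 4.78, 0 and 26.5 CPM under stimulus (−2.80 ± 0.79, SE, adjusted p = 0.828). Stimulated library A, the shallowest, held 2 counts of Hspa5, 0 of Serp1 and 2 of Xbp1 and cannot be placed, since 3 counts stood for 203 CPM there. Of the other 3 stimulated libraries, all lay below every control for Hspa5 and for Xbp1, and C and D did for Serp1, with B inside the control range. For Xbp1 the log2 difference was −4.48 without stimulated library D. None of the 3 passed the correction.

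With IL-1β and IL-6, Creld2 read 26.3, 31.6, 23.1 and 43.9 CPM in control ES-motor neurons and 19.6, 11.3, 8.78 and 6.69 CPM under stimulus (log2 difference −1.36 ± 0.75, SE). Manf read 213, 212, 150.1 and 253 CPM under control and 183, 67.8, 139 and 100.4 CPM under stimulus (−0.70 ± 0.39, SE). Serp1 read 187, 33.9, 30.3 and 20.1 CPM under stimulus (−0.80 ± 0.61, SE). For Creld2 all 4 stimulated values lay below every control, but those of B and D rest on 1 count each, with 3 counts at 33.9 and 20.1 CPM. Manf and Serp1 overlapped. The adjusted p was 0.9999 (edgeR) for each. Library A, at 187 CPM, held the Serp1 difference nearer to 0, since it was −2.19 on the log2 scale without that library, and it was −0.46 without control A and −0.47 without stimulated C.

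With TGF-β2, Eif2ak3 read 27.2, 19.6, 50.03 and 38.2 CPM in control ES-motor neurons and 8.29, 4.03, 6.32 and 0.858 CPM under stimulus. All 4 stimulated libraries, at 2, 47, 9 and 1 counts, lay below every control, with a log2 difference of −2.95 ± 0.88 (SE, adjusted p = 0.963, edgeR). DESeq2 gave −2.97 with an adjusted p of 0.0352, so the call depends on the tool. Some of the reads may be antisense, since 8.05% of the exon bases of Eif2ak3 overlap Gm43292 on the other strand. Creld2 read 16.6, 9.52, 0 and 7.72 CPM under stimulus (log2 difference −2.06 ± 0.92, SE, adjusted p = 0.999) and Hspa5 66.3, 197, 249 and 120.1 CPM (−0.93 ± 0.38, SE, adjusted p = 0.999). Creld2, at 4 counts in stimulated A, lay below every control in 4 of 4 libraries and Hspa5 in 3 of 4. Serp1 was the remaining member at an unadjusted p under 0.05 (20.7 to 117 CPM with a median of 49.1 CPM, log2 difference −1.10), and it was named after its values were seen.

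Whether a stimulus difference was unlike between the cell types was tested as an interaction over 16 libraries each. With IL-1α and TNF-α edgeR called 0 of 33 members (0% of 11161 genes), with 0 at an unadjusted p under 0.05 (2.66% of genes) and 0 by DESeq2. For C1Q with C5 it was 0 of 33 (0.00881% of 11352 genes), with 0 at an unadjusted p under 0.05 (3.71% of genes) and 0 by DESeq2. For IL-1β with IL-6 it was 0 of 34 (0% of 12104 genes), with 0 at an unadjusted p under 0.05 (4.56% of genes) and 0 by DESeq2. For TGF-β2 it was 0 of 35 (0% of 11967 genes), with 2 at an unadjusted p under 0.05 (3.69% of genes) and 0 by DESeq2. The gene called for C1Q with C5 was Spock3, no member (log2 difference of differences −7.25, adjusted p = 0.00508), named after its values were seen. That count was 4 without letter A and 0 without letter B or letter C, while the counts for IL-1α with TNF-α and for TGF-β2 were 1 without letter B and 1 without letter D. The 2 members at an unadjusted p under 0.05 for TGF-β2 were Serp1 and Ern1, also named after their values were seen. The Serp1 difference of differences was −2.001 ± 0.86 on the log2 scale (SE). Ern1 read 1.18, 0.272, 0 and 0 CPM in control ES-astrocytes, 0, 9.93, 22.4 and 23.4 CPM in ES-astrocytes with TGF-β2, 1.81, 3.53, 0 and 0 CPM in control ES-motor neurons, and 0 CPM in all 4 ES-motor neuron libraries with TGF-β2. It was thus highest in 3 stimulated ES-astrocyte libraries, and no fold is given against the group at 0.

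Wider lists of the same pathways were counted between the cell types, where 14.9% of all genes were called and 18.7% passed at any fold. Of 35 genes for ER import and glycoprotein folding, all tested, 1 was called, Sec61a1 of the translocon (log2 difference −1.29, adjusted p = 0.0393), and 2 passed at any fold with the prolyl isomerase Ppib (−0.63, adjusted p = 0.0126), while Srprb (−1.16, adjusted p = 0.0800) did not pass. Of 19 further genes for ER-associated degradation, 18 were tested and 1 was called, the ligase March6 (1.25, adjusted p = 0.0185), while Ube2j2 (−0.66) and Ufd1 (−0.50) did not pass. Median log2 differences were −0.38 for import and 0.00 for degradation, where all genes stood at −0.21. Of 32 genes of the integrated stress response, 28 were tested and 5 called, 2 higher and 3 lower in ES-motor neurons, with a median of 0.00. The 3 of smallest p were the stress-induced chromatin protein Nupr1 (−4.80, adjusted p = 2.12e-09), the lipoprotein receptor Vldlr (2.77, adjusted p = 7.05e-07) and the cationic amino acid transporter Slc7a1 (1.43, adjusted p = 0.000968). Genes of this list thus lay on both sides, and 5 of 28 does not set it apart from the 14.9% of all genes called. Without the 9 shallow libraries the called genes were 0 of 35 for import (0 at any fold), 1 of 18 for degradation and 3 of 31 for the integrated stress response, beside 10.4% of all genes.

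Lists of neighbouring programs served for comparison, against the same shares of all genes. Of 12 aminoacyl-tRNA synthetases, known ATF4 targets, 0 were called at 2-fold in edgeR (2 at an unadjusted p under 0.05, 0 by DESeq2). In the fit without shallow libraries 3 of the 12 lay under that unadjusted p, where 3747 of 15721 genes did. With all libraries 1 of the 12 passed at any fold, Gars (0.57, adjusted p = 0.0178), beside Cars (1.02) and Aars (0.40), with a median of 0.28. Of 12 cytosolic heat shock genes 10 were tested and 1 was called, the small heat shock protein Hspb1 (−3.47, adjusted p = 0.00328), beside Hspa4 (−0.60) and Hsp90ab1 (−0.30), with a median of −0.29. Of 8 mitochondrial chaperones and proteases 1 was called, the Hsp90-class Trap1 (−1.81, adjusted p = 9.32e-05), and 4 were lower at any fold with Hspe1 (−0.78) and Hspd1 (−0.60) among them, with a median of −0.48. Of the rest of that list, Dnaja3 (0.09) and Clpx (0.31) lay above 0 and were named after their values were seen. Without the 9 shallow libraries the mitochondrial genes passing at any fold were 2 of 8, and the medians were 0.52 for the synthetases, 0.11 for the heat shock genes, turned in sign, and −0.27 for the mitochondrial list. Whether the ER chaperones differ from other chaperones was not tested.

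Promoter sequence itself was not used to choose the members. Their choice by function took in known targets of XBP1, ATF4 and ATF6, so the shares below are no independent test. RefSeq promoter windows (build GRCm38.p6, 250 bases before to 50 bases after the gene start) were found for 32 of 36 members, and no entry was found for Atf6, Derl1, Hyou1 and Manf. Windows were searched on both strands for the ER stress response element ERSE (CCAAT, any 9 bases, CCACG), bound by ATF6 with NF-Y, and for ERSE-II (ATTGG, any 1 base, CCACG). ERSE was matched in 8 members, or 25% of those in the table, where 0.137% of 27025 genes with a window held a match. These were 7 of 14 chaperones in the table (Calr, Canx, Creld2, Dnajc3, Hsp90b1, Hspa5 and Pdia6) and Syvn1. Of these 8, 6 were lower in ES-motor neurons at any fold, and of the 24 members in the table without ERSE, 3 were, beside 13.2% of all genes. Without the 9 shallow libraries, or without letter B, the only ones of these 32 members that passed as lower were Creld2, Hsp90b1 and Hspa5, all with ERSE. Manf passed as lower in both of these fits too, but it had no window and cannot be placed. All lower members in the fit of all 40 libraries were chaperones or folding enzymes. Of the 7 chaperones with ERSE, 6 were lower, and the 3 lower members without it were chaperones as well. Whether element or role goes with the level was not tested. ERSE-II was matched in Dnajb11 and Herpud1, 6.25% of members and 0.0444% of all genes. The part CCACG, which lies inside both elements, was matched in 25 of 32 members (78.1%) and 35.5% of all genes. A match describes the letters of the window and is neither a bound site nor a cause.

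The following RefSeq stretches (GRCm38.p6, 5′ to 3′ on the strand of the gene) are shown because these genes were lower in ES-motor neurons and share the element. Capitals mark the CCAAT and CCACG parts, or ATTGG and CGTGG where the match is on the other strand. The regions are chr2:34772005-34772063, plus strand for Hspa5, chr10:86705513-86705676, minus strand for Hsp90b1 with 2 matches, chr15:88819500-88819558, plus strand for Creld2, chr14:118937807-118937865, plus strand for Dnajc3, chr12:17266471-17266529, plus strand for Pdia6, and chr8:84847055-84847113, minus strand for Calr.
Hspa5: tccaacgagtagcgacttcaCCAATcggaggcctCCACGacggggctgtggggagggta
Hsp90b1: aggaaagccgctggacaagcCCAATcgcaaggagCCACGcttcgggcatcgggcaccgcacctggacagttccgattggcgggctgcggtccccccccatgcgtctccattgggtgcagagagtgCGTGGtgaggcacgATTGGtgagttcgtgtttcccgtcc
Creld2: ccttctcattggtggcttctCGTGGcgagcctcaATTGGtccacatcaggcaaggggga
Dnajc3: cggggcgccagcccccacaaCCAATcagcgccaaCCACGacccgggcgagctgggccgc
Pdia6: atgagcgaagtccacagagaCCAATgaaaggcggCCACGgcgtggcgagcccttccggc
Calr: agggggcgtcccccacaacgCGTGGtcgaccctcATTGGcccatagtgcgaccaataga
In each match the 9 bases between the parts differ from gene to gene, while the parts themselves are fixed by the search.

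Matches in genes without a passing difference between the cell types are shown for comparison. Canx (chr11:50325780-50325838, minus strand) and Syvn1 (chr19:6046512-6046570, plus strand) carry ERSE, in capitals as above, and did not pass between the cell types. Herpud1 (chr8:94386357-94386407, plus strand) carries ERSE-II, its parts ATTGG and CCACG in capitals.
Canx: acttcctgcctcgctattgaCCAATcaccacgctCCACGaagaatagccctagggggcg
Syvn1: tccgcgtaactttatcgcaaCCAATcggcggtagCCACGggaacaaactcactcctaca
Herpud1: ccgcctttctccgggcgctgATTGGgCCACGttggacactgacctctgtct
Whether the element bears on the level was not tested.

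The last motif searched was the core of the composite element bound by C/EBP with ATF4 (TGATG, any 1 base, AA). It was matched in 5 members, Asns, Atf3, Chac1, Herpud1 and Trib3, or 15.6% of members and 4.51% of all genes, and in 3 of the 5 ATF4 targets. Asns, the one member that passed as higher in ES-motor neurons with all 40 libraries, is shown with the core in capitals from chr6:7693210-7693252, minus strand.
Asns: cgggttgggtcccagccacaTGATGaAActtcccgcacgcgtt
Of the 5 members with this core, 1 was higher in ES-motor neurons, 3 did not pass at any fold, and Trib3 was too low for the fit of all 40 libraries. Trib3 was called higher without the 9 shallow libraries (log2 difference 4.38, adjusted p = 0.0498, edgeR), and was also called without a filter.

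**Figure D4:**
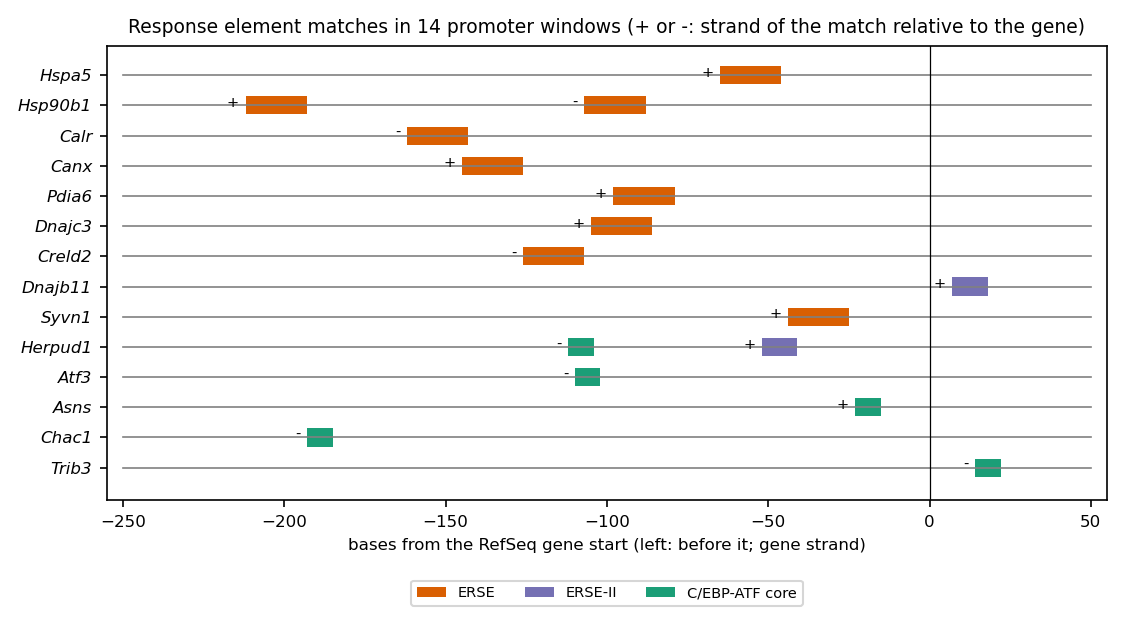
Positions of ERSE, ERSE-II and C/EBP-ATF core matches in 14 promoter windows, in bases from the RefSeq gene start (horizontal axis, upstream to the left), with the strand of each match marked. ERSE lies in 8 windows, with 2 matches in Hsp90b1.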

How the data were processed

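Gene counts of 40 libraries were taken as deposited. The authors mapped reads with STAR and named DESeq2 in their processing notes, and none of the sources used here states the build, annotation or counting tool behind the deposited counts. Ensembl identifiers were matched to GENCODE M21, which gave a symbol for 55227 of 55487 genes. The 36 members carry 37 identifiers, since Ddit3 has a second one of 105 exon bases that lie wholly inside the first, and the first was used. Whether counting used strand is not stated, so antisense overlaps were listed (10.3% of Hsp90b1 exon bases with 1810014B01Rik, a pseudogene). Members and lists were chosen with earlier results of these data known.

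Groups came from the labels. Counts were fitted in R 4.3.3 with edgeR 4.0.16 (robust quasi-likelihood test, trimmed mean of M-values scaling, filterByExpr on the groups), with p-values adjusted by Benjamini-Hochberg over all genes tested. Each SE of a log2 difference was derived from that difference and the F statistic of its test, so a normal interval from it need not match the p-value. A call needed an adjusted p of 0.05 or less with a log2 fold change beyond 1 in either direction. The cell type comparison used all 40 libraries with treatment as a term, each stimulus comparison its own 8 libraries, and each interaction its own 16. The steps were tested on simulated data. A gene too low for the fit was compared by a 2-sided permutation test of mean CPM.

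Named with a test are the members called, the 3 of smallest unadjusted p in each stimulus comparison, Hspa5 and Mthfd2 with IL-1β and IL-6 in ES-astrocytes, and the sensors and transcription factors between the cell types. Other members were described between the cell types beyond this rule, so that each role is covered, and were chosen after their values were seen. For wider lists the 3 genes of smallest p are named. Alternatives were DESeq2 1.42.0, relative log expression scaling, no filter, any fold, the replicate letter as a block, control libraries alone, a joint fit of all 40 libraries, omission of shallow libraries and of each replicate in turn. Fits within a plate index, against the other stimuli of plate index 2, and without ES-astrocyte control A were chosen after seeing the data. Promoter windows came from RefSeq (GRCm38.p6) and were searched in Python 3.11.15, with plots in matplotlib 3.10.9.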

Additional observations from a re-analysis of the deposited data

Results flagged for a closer look

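The 22 members named by the rule were read in the groups of 4 libraries of the comparisons that named them. The summed CPM of the chaperone members was read in every group. A library was marked when its gap to the nearest of the other 3, divided by the range of the group, exceeded the critical value of Dixon for 4 samples. Groups with all 4 libraries at 0 were counted, although they cannot hold a library apart. Of 203 such groups 17 held a library apart, always the highest, where chance marks about 1 in 20 groups of normal values. Counts are skewed, and in 6 of the 17 the other libraries were all at 0, which alone marks a group, so the number is not set against chance.

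ES-astrocyte control A stood above its group for 4 members. There Asns was at 296 CPM (others 31.2 to 69.1 CPM), Calr at 258 CPM (173 to 182 CPM), Mthfd2 at 178 CPM (16.97 to 42.0 CPM) and Pdia6 at 809 CPM (118 to 229 CPM). Control D stood apart for Ddit3 at 68.9 CPM (8.36 to 16.4 CPM).

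With IL-1α and TNF-α in ES-astrocytes, Manf was at 351 CPM in library A (279 to 284 CPM), and library B held Atf6 at 19.9 CPM (0 to 0.0767 CPM) and Ern1 at 4.97 CPM (others 0). Atf3 was at 0.502 CPM in library D (others 0), from 1 count. With IL-1β and IL-6, Atf3 was at 8.89 CPM in library B (others 0). With TGF-β2, library C held Ddit3 at 39.8 CPM (28.9 to 30.8 CPM) and Eif2ak3 at 14.8 CPM (0 to 2.25 CPM).

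In ES-motor neurons with IL-1α and TNF-α, library A held Mthfd2 at 195 CPM (34.6 to 60.7 CPM), from 33 counts, and Atf3 at 5.92 CPM (others 0), from 1 count. Library B held Atf6 at 12.96 CPM (others 0), from 6 counts. With IL-1β and IL-6, library A held Serp1 at 187 CPM (20.1 to 33.9 CPM) and Atf3 at 4.83 CPM (others 0).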

How the results depend on the processing

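Between the cell types 4 members were called, against 7 with DESeq2 (14 at any fold, beside 9.83% of 25575 genes), 11 at any fold, 0 in control libraries alone and 2 within plate index 1, and leaving out each replicate letter gave 3 to 5. Genes called numbered 1972, against 228 in control libraries alone, 742 within plate index 1 and 1249 within plate index 2, and 1447 to 1771 without a letter. Relative log expression scaling moved the median of all genes from −0.21 to −0.26 on the log2 scale and turned the sign of no named member. With DESeq2 the median was 0.81 over its 25575 genes, turned in sign, and −0.48 over the members. Some signs turned for genes never called. Between the cell types Atf3 was at −0.35 with the replicate block, −0.20 without shallow libraries and −0.61 within plate index 2, Atf4 at −0.0402 and Ddit3 at −0.0238 within plate index 2, and Atf6 at 0.26 in control libraries alone and 0.0909 within plate index 1. Without single letters the ranges were −1.41 to 1.75 for Atf3, −0.12 to 0.55 for Ddit3 and −0.28 to 0.54 for Xbp1. Dnajc3, a called member, kept its sign (−1.34 to −1.01). Without IL-1α and TNF-α library A in ES-motor neurons Mthfd2 turned (−0.11 to 1.19). Against the other stimuli of plate index 2, Atf4 with C1Q and C5 in ES-astrocytes was at −0.0911 and Serp1 with IL-1β and IL-6 in ES-motor neurons at 0.66. The cause was not tested.

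No member was called for any stimulus or interaction under any alternative (edgeR or DESeq2), except Eif2ak3 with TGF-β2 in ES-motor neurons with DESeq2 (1 member). Genes called in ES-astrocytes were 0 in edgeR but, with DESeq2, 21 with IL-1α and TNF-α, 37 with C1Q and C5, 56 with IL-1β and IL-6 and 58 with TGF-β2. They were 2 without a filter for IL-1α and TNF-α, and 2 in the joint fit for C1Q with C5 and for IL-1β with IL-6, and 0 whichever single library was left out. In ES-motor neurons IL-1α with TNF-α gave 1 with DESeq2 and 1 without a filter, and IL-1β with IL-6 gave 1 with DESeq2, both 0 whichever single library was left out. C1Q with C5 gave 0 to 2, with 2 without control D. TGF-β2 gave 1, against 19 with DESeq2, 5 without a filter, 0 without shallow libraries and 3 against the other stimuli of plate index 2, and 0 to 2 without single libraries. The interaction for C1Q with C5 gave 1, against 7 with DESeq2, 3 without a filter, 0 without shallow libraries and 0 in the joint fit, and 0 to 4 without a letter. For IL-1β with IL-6 it gave 25 and for TGF-β2 18 with DESeq2. Without a letter these gave 0 and 0 to 1 (1 without D), and IL-1α with TNF-α 0 to 1 (1 without B). The cause was not tested.

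Replicate letters were not used to pair the samples in the main fits. In no comparison did all same-letter pairs correlate above 0.1 (lowest −0.241, highest 0.427). With few libraries a group, some of them shallow, this check cannot exclude that libraries of the same letter share a culture. With TGF-β2 in ES-motor neurons the 4 pairs ran from 0.0475 to 0.143, each sample closest to its own letter. The replicate block gave 5 members between the cell types, adding Dnajb11, and 4 genes for TGF-β2 in ES-motor neurons, and it changed no other count by more than 1.5 times. ES-motor neurons with IL-1α and TNF-α, and that interaction, were not run without shallow libraries, since no library was left.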
